A study of Homo sapiens with 4 samples.

Results

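The genes described here encode parts of the lysosome: 53 genes for its soluble hydrolases and their cofactors, its membrane proteins and the proton pump that acidifies it, out of 60617 gene entries in the deposited matrix. They were chosen by name, as genes of the pathway, with earlier results of these data known, and each matched 1 Ensembl identifier. RNA-seq was done on SKNMC cells, an established human Ewing sarcoma line, after 24 h with 1 µM CBL0137 (2 libraries) or with the DMSO vehicle (2 libraries). CBL0137 is a DNA-binding small molecule of the curaxin class that traps the histone chaperone FACT on chromatin, and the series compares the transcripts of cells with and without it. All libraries share the cell line, the medium and the time point, and the labels do not say whether replicates were grown separately, so a p-value here reflects the spread of these 4 libraries, which may be technical.

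Lysosomes break down proteins, sugars, lipids and nucleic acids delivered by endocytosis and autophagy. Their hydrolases work at acid pH, are tagged with mannose 6-phosphate in the Golgi and are carried to the organelle by receptors. The V-ATPase, a proton pump built from a cytosolic V1 sector that burns ATP and a V0 sector in the membrane that passes protons, keeps the lumen acid. Many of these genes carry an E-box-like promoter element bound by the transcription factors TFEB, TFE3 and MITF.

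Lysosomal transcripts were mostly higher with CBL0137. Of the 53 genes 51 passed the filter on low counts, and 23 of these rose, 3 fell and 25 were not called. A call needs a Benjamini-Hochberg adjusted p under 0.05 in edgeR's quasi-likelihood test over all 17374 tested genes and a fold above 1.5. Over all tested genes 18.2% were called higher and 15.1% lower (33.4% in all), against 45.1% and 5.88% of the lysosomal genes. The median log2 fold change was 0.47 for the lysosomal genes and 0.01 for all tested genes. As the genes were chosen with earlier results of these data known, these shares and medians are a description and not a test. The 3 that fell were the protease gene CTSO, the lipase gene LIPA and the membrane receptor gene SCARB2.

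Both CBL0137 libraries lay above both DMSO libraries for 39 of the 51 genes, against 40.7% of all tested genes, and below them for 8, against 39.2% of all. The groups overlapped for the other 4, CTSC, ARSB, SMPD1 and NPC1. Without the fold limit 36 of the genes were higher and 7 lower at an adjusted p under 0.05, where the shares over all tested genes were 30.8% and 30.9%. The lysosomal genes are mostly well expressed, so protein-coding genes with an average log2 CPM (reads scaled to a common library total) of at least 4 were set beside them, a limit chosen after the values were seen. Of 8580 such genes 9.59% were called higher and 15.7% lower, while of the 44 lysosomal genes above that limit 19 rose and 2 fell. Summed over the 53 genes, the level was 4204 and 4214 CPM in the CBL0137 libraries, against 3178 and 3093 CPM in the DMSO libraries. In bulk RNA such a level cannot tell apart more cells that express a gene from more of its RNA per cell.

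**Figure D1:**
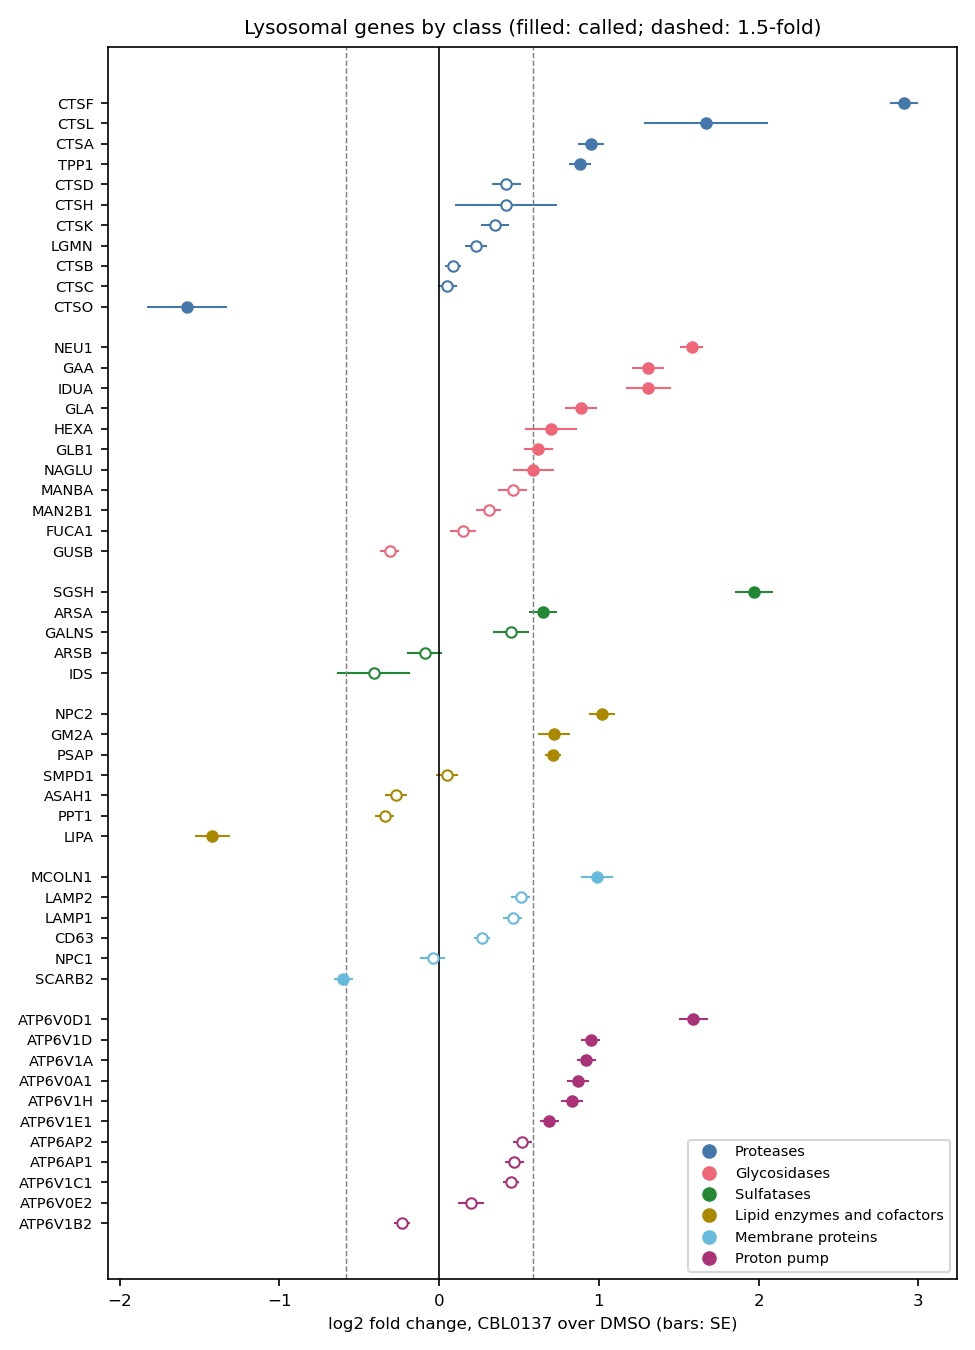
The log2 fold change (CBL0137 over DMSO, horizontal axis) of each of the 51 tested lysosomal genes is plotted by class, with bars for its SE from edgeR. Filled points are the 26 called genes and dashed lines mark a 1.5-fold difference. CTSF at 2.91 lies farthest to the right, and CTSO, LIPA and SCARB2 are the filled points left of 0.

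The libraries held 20767817 and 21061892 reads assigned to genes with CBL0137 and 20086664 and 19625517 with DMSO. Reads in no annotated gene were 10.3% and 10.2% of the counted reads in CBL0137 libraries and 8.53% and 8.82% in DMSO libraries, and their part in the results was not tested. All 7 markers of the Ewing sarcoma line, such as CD99 and NKX2-2, were detected in every library, with a summed level of 768 and 831 CPM in CBL0137 libraries and 1324 and 1322 CPM in DMSO libraries, and 0 of them rose and 4 fell. Macrophages are rich in lysosomes. Of their 7 markers TYROBP was at 0 counts in all 4 libraries, and CD14, CSF1R, ITGAM and LYZ stayed at or under 0.497 CPM. The summed level of the list was 117 and 135 CPM with CBL0137 and 185 CPM in each DMSO library, most of it from PTPRC, with MSR1 as the other marker that passed the filter. The 5 fibroblast markers, COL1A2 in the main, summed to 842 and 863 CPM in CBL0137 libraries and 895 and 896 CPM in DMSO libraries. The part of these marker levels in the results was not tested.

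Among the proteases 4 of 11 tested genes rose, 1 fell and 6 stayed uncalled (median 0.42 on the log2 scale), and CTSZ was too low to test. CTSF, the gene of the cysteine protease cathepsin F (ENSG00000174080, GRCh37 chr11:66330935-66336350, minus strand), had 68.0 and 66.1 CPM in CBL0137 libraries and 8.67 and 9.19 CPM in DMSO libraries. This was the steepest rise of the 51 genes, at 2.91 on the log2 scale (SE 0.09, adjusted p = 1.3e-27 by edgeR), and the groups were far apart. In the authors' FPKM, a level scaled for gene length and sequencing depth, CTSF averaged 23.2 ± 0.461 with CBL0137 and 2.83 ± 0.394 with DMSO (SD, n = 2).

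TPP1, which encodes the tripeptidyl peptidase lost in a form of neuronal ceroid lipofuscinosis, had 81.6 and 79.8 CPM with CBL0137 and 45.3 and 42.55 CPM with DMSO (log2 fold change 0.88, SE 0.07). CTSA, whose product is a carboxypeptidase that also protects neuraminidase and beta-galactosidase, had 45.8 and 49.4 CPM with CBL0137 and 24.4 and 25.0 CPM with DMSO (0.95, SE 0.08). Both were higher in each CBL0137 library than in either DMSO library. CTSL, of cathepsin L, was called at low levels of 61 and 37 reads with CBL0137 and 14 and 12 reads with DMSO (1.67, SE 0.39). CTSO, a little-studied cysteine protease gene, went the other way, with 49 and 33 reads in CBL0137 libraries and 89 and 120 reads in DMSO libraries (-1.58, SE 0.25, adjusted p = 6.3e-07 by edgeR).

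The most abundant protease genes by FPKM, CTSD, CTSB and CTSC, were not called. CTSD, of the aspartic protease cathepsin D, had the highest FPKM of the class, 75.7 ± 3.83 with CBL0137 and 53.03 ± 2.81 with DMSO (SD, n = 2), and a log2 fold change of 0.42 from counts (SE 0.09) that stayed under the fold limit. By counts CTSD was lower in rank, with 32.8 and 30.3 CPM with CBL0137 and 25.5 and 21.7 CPM with DMSO. Of its 5697 exonic bases 1304 also lie in exons of ENSG00000250644 on the same strand, and the part of this overlap was not tested. CTSB, of cathepsin B, had 258 and 259 CPM with CBL0137 and 247 and 237 CPM with DMSO (0.09, SE 0.05), and CTSC, which activates serine proteases of immune cells, was at 0.05 (SE 0.06). LGMN (0.23), the asparagine endopeptidase, CTSK (0.35), the collagen-degrading cathepsin of osteoclasts, and CTSH (0.42, SE 0.32) were not called either.

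Of the 11 glycosidase genes 7 were higher, 0 lower and 4 uncalled (median 0.62). NEU1, the lysosomal neuraminidase (ENSG00000204386, GRCh37 chr6:31825436-31830682, minus strand), had 93.9 and 86.0 CPM in CBL0137 libraries and 31.0 and 29.0 CPM in DMSO libraries, and was also the glycosidase gene with the highest FPKM under CBL0137. Its log2 fold change was 1.58 (SE 0.07, adjusted p = 3.4e-22 by edgeR). GAA, the acid alpha-glucosidase that degrades glycogen and is deficient in Pompe disease (ENSG00000171298, GRCh37 chr17:78075332-78093680, plus strand), had 37.5 and 33.2 CPM with CBL0137 and 14.2 and 14.3 CPM with DMSO (1.31, SE 0.10). The groups of both genes were separated by far more than their replicates.

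IDUA, which cleaves iduronic acid from heparan and dermatan sulfate, had 17.4 and 15.3 CPM with CBL0137 and 6.82 and 6.34 CPM with DMSO (1.31, SE 0.14). The other 4 that rose were GLA (0.89), the alpha-galactosidase of Fabry disease, HEXA (0.70), GLB1 (0.62), the beta-galactosidase, and NAGLU (0.59), an enzyme of heparan sulfate breakdown. NAGLU sat at the fold limit, and its value was 0.44 without CBL0137 replicate 2 and 0.48 without DMSO replicate 2, neither of them called. GLB1 was at 0.53 and not called without DMSO replicate 2. The beta-glucuronidase gene GUSB was the member of the class with a negative value, at 66.5 and 69.8 CPM with CBL0137 and 86.0 and 82.9 CPM with DMSO (-0.31, SE 0.06), within the fold limit. MANBA (0.46), MAN2B1 (0.31) and FUCA1 (0.15) remove mannose or fucose from glycoproteins and were not called.

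Of the 5 sulfatase genes 2 rose, 0 fell and 3 were not called (median 0.45). SGSH, the sulfamidase of heparan sulfate breakdown (ENSG00000181523, GRCh37 chr17:78180515-78194722, minus strand), had 28.3 and 27.6 CPM in CBL0137 libraries and 8.30 and 5.96 CPM in DMSO libraries. Its log2 fold change of 1.97 (SE 0.12, adjusted p = 1.2e-17 by edgeR) was the second largest of all 51 genes. ARSA, the arylsulfatase that acts on sulfatide, had 33.2 and 34.1 CPM with CBL0137 and 21.9 and 21.0 CPM with DMSO (0.65, SE 0.09). With the trend of fold change with GC content and gene length removed ARSA was at 0.30 and not called. GALNS (0.45, SE 0.11) and ARSB (-0.09, SE 0.11), both of glycosaminoglycan breakdown, were not called in the main edgeR test. IDS, the iduronate sulfatase, was at -0.41 (SE 0.23), and was called lower at -0.63 without DMSO replicate 1.

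Lipid enzymes and lipid-binding cofactors split, as 3 of 7 rose, 1 fell and 3 stayed uncalled (median 0.05). The genes that rose all encode non-enzymatic lipid-binding proteins. PSAP, the precursor of the saposins that present sphingolipids to their hydrolases (ENSG00000197746, GRCh37 chr10:73576055-73611008, minus strand), had 672 and 668 CPM with CBL0137 and 419 and 400 CPM with DMSO. It rose by 0.71 on the log2 scale (SE 0.05, adjusted p = 1.9e-15 by edgeR), and it alone made up much of the class sum of 947 and 962 CPM with CBL0137 and 712 and 684 CPM with DMSO. NPC2, the soluble cholesterol carrier, had 59.0 and 57.3 CPM with CBL0137 and 31.6 and 25.7 CPM with DMSO (1.02, SE 0.08). GM2A, the activator that presents GM2 ganglioside for hydrolysis, had 23.9 and 27.6 CPM with CBL0137 and 16.5 and 14.8 CPM with DMSO (0.72, SE 0.10).

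None of the 4 lipid hydrolase genes rose. LIPA, the acid lipase that frees cholesterol from its esters (ENSG00000107798, GRCh37 chr10:90973326-91174314, minus strand), had 9.15 and 8.94 CPM in CBL0137 libraries and 23.0 and 25.5 CPM in DMSO libraries. It fell by 1.42 on the log2 scale (SE 0.11, adjusted p = 2.9e-14 by edgeR). The acid sphingomyelinase gene SMPD1 was at 0.05 (SE 0.07), the acid ceramidase gene ASAH1 at -0.27 (SE 0.07) and the palmitoyl thioesterase gene PPT1 at -0.34 (SE 0.06), none of them called.

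Of the 6 membrane protein genes 1 was higher, 1 lower and 4 uncalled, or 16.7% in each direction, near the 18.2% and 15.1% of all tested genes (3 higher and 0 lower with library size alone, 1 and 0 with upper-quartile factors). MCOLN1, the calcium-permeable channel TRPML1 (ENSG00000090674, GRCh37 chr19:7587510-7598895, plus strand), had 34.5 and 31.1 CPM with CBL0137 and 16.5 CPM in each DMSO library. Its log2 fold change was 0.99 (SE 0.10, adjusted p = 5.3e-12 by edgeR). SCARB2, which encodes LIMP-2, a receptor that carries cargo to lysosomes, had 86.8 and 95.8 CPM with CBL0137 and 137 and 139 CPM with DMSO. Its value of -0.60 (SE 0.06) sat at the fold limit, and it was -0.44 with library size alone, -0.53 when CBL0137 replicate 1 was left out and -0.42 in FPKM, none of them called.

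The genes of the structural membrane proteins stayed under the fold limit in the main edgeR test. LAMP1 and LAMP2, the abundant glycoproteins that line the lysosome, had log2 fold changes of 0.46 (SE 0.06) and 0.51 (SE 0.06). With library size alone both were called higher (0.62 for LAMP1 and 0.67 for LAMP2). LAMP2 was also called at 0.68 with the GC and length trend removed and at 0.81 in FPKM. The tetraspanin gene CD63, with the highest FPKM of the class, had 207 and 220 CPM with CBL0137 and 183 and 170 CPM with DMSO (0.27, SE 0.05), while the groups overlapped in FPKM. NPC1, the membrane cholesterol transporter that works with NPC2, was at -0.04 (SE 0.08), and its groups overlapped.

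**Figure D2:**
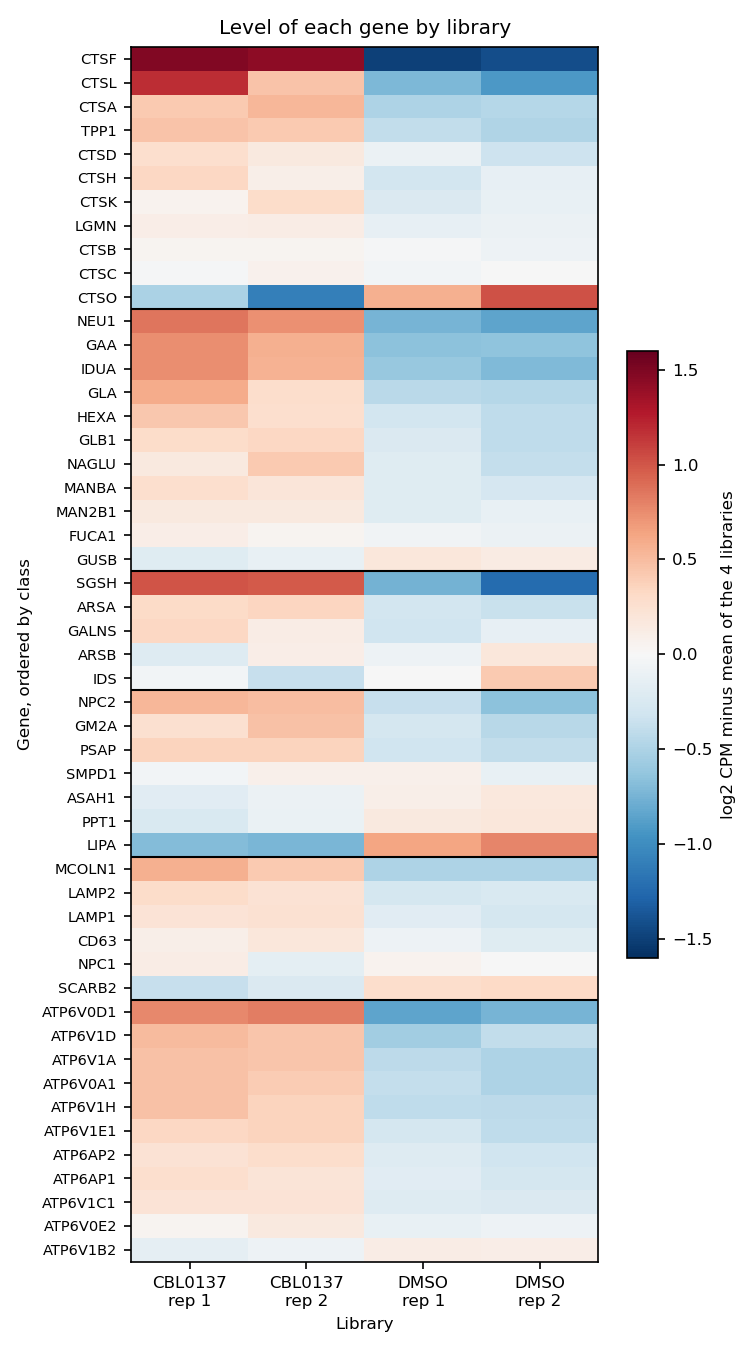
Each row is 1 of the 51 tested genes, each column 1 of the 4 libraries, and the colour gives log2 CPM minus the gene's mean over the libraries. Black lines separate the classes in the order proteases, glycosidases, sulfatases, lipid enzymes and cofactors, membrane proteins and proton pump. Most rows are red in both CBL0137 columns and blue in both DMSO columns, and CTSO, LIPA and SCARB2, the called genes that fell, show the opposite. The uncalled genes GUSB, PPT1, ASAH1 and ATP6V1B2 show the opposite more faintly. In IDS, too, both CBL0137 libraries lay below both DMSO libraries.

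Proton pump genes had 6 of 11 tested members higher, 0 lower and 5 not called (median 0.69). In the V1 sector 4 of 6 rose. ATP6V1A, the catalytic subunit (ENSG00000114573, GRCh37 chr3:113465617-113530903, plus strand), had 164 and 160.2 CPM with CBL0137 and 88.2 and 83.4 CPM with DMSO, a rise of 0.92 on the log2 scale (SE 0.06, adjusted p = 8e-18 by edgeR). ATP6V1D, a subunit of the central rotor, had 141 and 135 CPM with CBL0137 and 67.3 and 75.2 CPM with DMSO (0.95, SE 0.06). ATP6V1H (0.83) and ATP6V1E1 (0.69), which belong to the regulatory and stator parts, rose as well.

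The other 2 V1 genes were not called in the main edgeR test. ATP6V1B2, the non-catalytic subunit that alternates with ATP6V1A in the ring, had 182 and 190 CPM with CBL0137 and 219 and 216 CPM with DMSO (-0.23, SE 0.05, adjusted p = 0.00028 by edgeR), lower but within the fold limit. ATP6V1C1 (0.45, SE 0.05), of the stator, was higher and within the limit too. It was called higher with library size alone (0.60) and with the GC and length trend removed (0.63).

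In the V0 sector ATP6V0D1, the subunit that joins the rotor to the membrane ring (ENSG00000159720, GRCh37 chr16:67471917-67515084, minus strand), had 48.4 and 50.2 CPM with CBL0137 and 15.9 and 16.98 CPM with DMSO. Its log2 fold change of 1.59 (SE 0.09, adjusted p = 1.9e-19 by edgeR) was the largest of the pump. ATP6V0A1, one of the proton channel subunits, had 86.1 and 82.0 CPM with CBL0137 and 47.7 and 44.2 CPM with DMSO (0.87, SE 0.07). ATP6V0E2 was at 0.20 (SE 0.08), and the accessory subunit genes ATP6AP1 (0.47) and ATP6AP2 (0.52) stayed under the fold limit in the main edgeR test. Both were called higher in FPKM (0.59 for ATP6AP1 and 0.64 for ATP6AP2) and with library size alone (0.63 and 0.68), and ATP6AP2 also with the GC and length trend removed (0.65).

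ATP6V0C, the proteolipid that forms the membrane ring, could be read from FPKM alone. It had 8 and 1 counted reads with CBL0137 and 1 and 5 with DMSO, although its FPKM of 92.9 and 94.7 with CBL0137 and 73.1 and 69.2 with DMSO was the highest of the pump genes. Of its 1416 exonic bases 862 also lie in exons of ENSG00000260272 on the same strand (GENCODE release 44, GRCh37), and reads that fit more than 1 gene made up 8.75% and 8.78% of counted reads in CBL0137 libraries and 9.34% and 9.27% in DMSO libraries. The part of this overlap in its low count was not tested. On the log2(FPKM + 1) scale ATP6V0C differed by 0.39 (SE 0.06, limma adjusted p = 0.0055), under the fold limit.

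**Figure D3:**
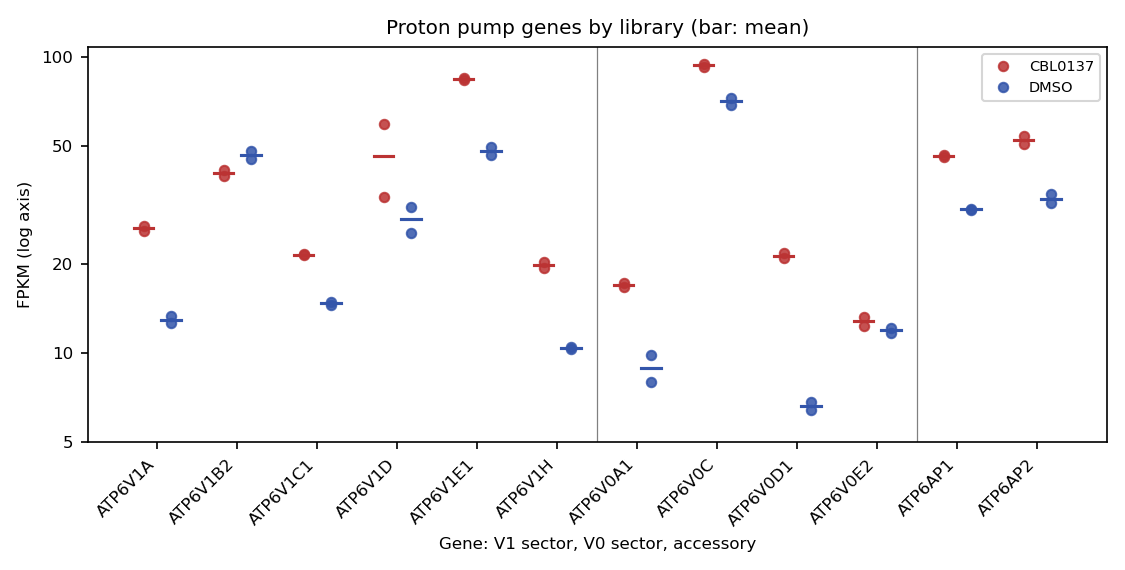
The authors' FPKM (log axis) of the 12 proton pump genes is shown for each library, CBL0137 in red and DMSO in blue, with a bar at the mean of the 2 libraries. The V1 sector, the V0 sector and the accessory subunits are separated by grey lines. ATP6V1B2 is the gene with DMSO above CBL0137, and the CBL0137 libraries of ATP6V1D lie apart at 33.6 and 59.3.

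The deposited FPKM values cannot all come from the deposited counts, since 5103 genes with 0 counts had an FPKM above 0, so they give a second reading of the same libraries. By limma on log2(FPKM + 1) 24 of 51 lysosomal genes with a mean FPKM of at least 0.5 were called higher and 2 lower, against 12.5% and 9.52% of the 16213 genes tested. Of the 23 genes that rose by counts 20 also did by FPKM. HEXA, which encodes a subunit of a ganglioside-degrading enzyme, did not: it had 10.4 and 9.30 CPM with CBL0137 and 6.29 and 5.80 CPM with DMSO, but an FPKM of 10.8 and 10.2 with CBL0137 and 13.3 and 8.46 with DMSO, a difference of -0.02. The exons of HEXA share 2092 bases with an opposite-strand gene, ENSG00000261460, and 617 bases with ENSG00000260729 on the same strand. The sources used here do not give the strand setting of the counting, and the part of either overlap was not tested. The other 2 were ARSA, at 0.53 by FPKM, and ATP6V1D, at 0.64 with FPKM of 33.6 and 59.3 in the CBL0137 libraries (limma adjusted p = 0.11). CTSO and LIPA were lower by both readings. The 4 genes called higher by FPKM and not in the main edgeR test were GALNS, LAMP2, ATP6AP1 and ATP6AP2. PSAP (128 and 127), CD63 (113 and 122) and ATP6V0C (92.9 and 94.7) had the highest FPKM of the 53 genes with CBL0137. With DMSO the order began with CD63 (115 and 106), followed by PSAP (77.4 and 75.1) and ATP6V0C (73.1 and 69.2). The libraries of neighbours in these orders did not overlap, though PSAP and ATP6V0C lay close with DMSO.

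**Figure D4:**
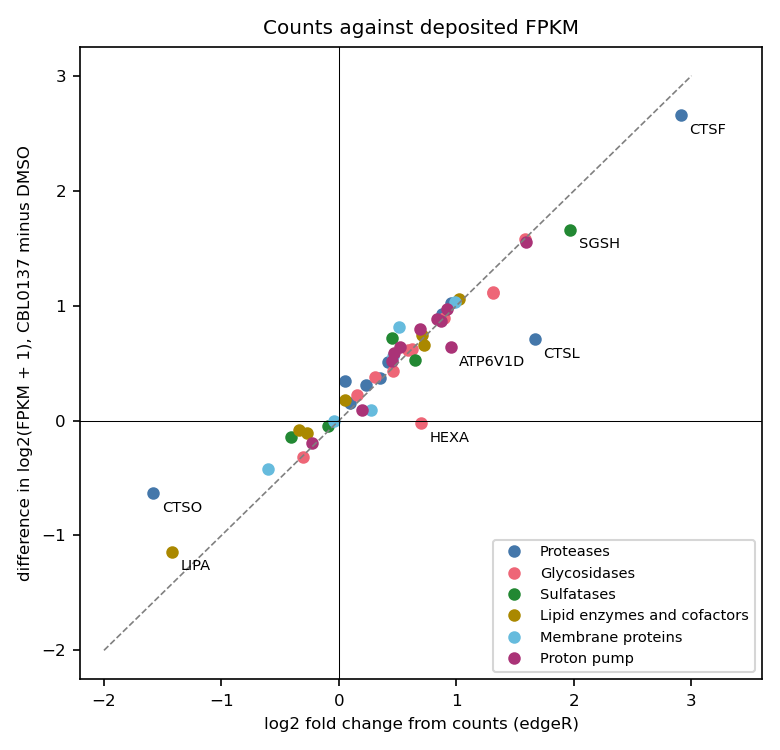
Each point is a lysosomal gene tested both ways, with its log2 fold change from counts on the horizontal axis and its difference in log2(FPKM + 1), CBL0137 minus DMSO, on the vertical axis. The dashed line marks equal values. HEXA lies off it at 0.70 and -0.02, and the genes of low level, CTSL and CTSO, are drawn toward 0 by the added 1.

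Of the 53 genes 27 share exonic bases with another annotated gene. In the 26 that share none, 10 rose, 2 fell and 14 were not called (median 0.46), and in the 25 tested genes that share some, 13 rose, 1 fell and 11 were not called (median 0.59). GLA, for example, overlaps the ribosomal protein gene RPL36A on the opposite strand over 557 bases. IDS shares 6968 of its 9294 exonic bases with ENSG00000241489 on the same strand. It had 81 and 65 reads with CBL0137 and 71 and 94 reads with DMSO, and an FPKM of 3.84 and 2.38 with CBL0137 and 3.47 and 3.46 with DMSO. The part of this overlap in its count was not tested.

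Other genes of the organelle were read from a list of 74, of which 62 were tested. Of these 20 rose (32.3%), 5 fell (8.06%) and 37 were not called (median 0.36). Over all tested genes 18.2% were called higher and 15.1% lower. This list, too, was chosen with earlier results of these data known. By class, the share that rose ran from 16.7% for its proton pump genes to 42.9% for its lipid enzymes. Of 6 sorting genes 2 rose, 0 fell and 4 were not called. Those that rose were M6PR (0.69), the small mannose 6-phosphate receptor, and GNPTAB (0.61, and 0.49 and not called in FPKM), which makes the mannose 6-phosphate tag. The large receptor gene IGF2R was at 0.58 (SE 0.05), just under the limit, and the sorting receptor gene SORT1 at -0.32 (SE 0.07). Among the membrane protein genes of the list that rose were CLCN7 (1.34) and OSTM1 (0.60), which encode the chloride-proton exchanger of the lysosome and its partner. These 6 genes were named after their values were seen.

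**Figure D5:**
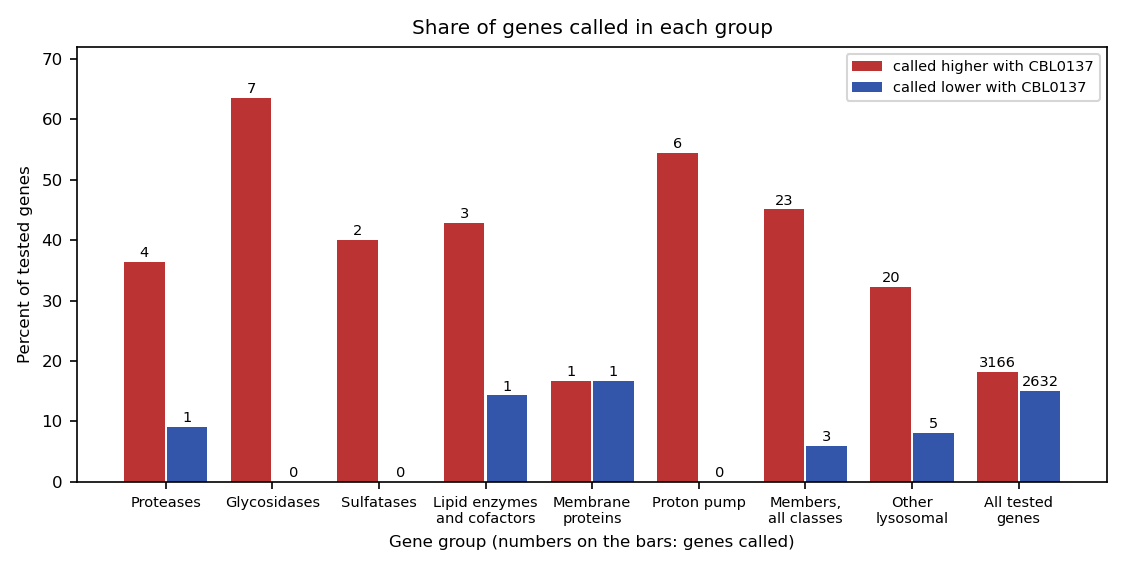
Bars give the percent of tested genes called higher (red) or lower (blue) with CBL0137 in each class, in the lysosomal genes as a whole, in the list of other lysosomal genes and in all tested genes. The numbers on the bars are the genes called. The glycosidases reach 63.6% called higher and the proton pump 54.5%, against 18.2% of all tested genes.

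By rank, the highest values among called genes of that list were MCOLN3 (2.69), ACP5 (1.81) and HYAL1 (1.70), an ion channel, the tartrate-resistant phosphatase and a hyaluronidase. They were low in DMSO, where MCOLN3 had 7 and 8 reads, ACP5 4 and 6 reads and HYAL1 5 and 4 reads, so the filter could pass them through the CBL0137 libraries. The lowest were MCOLN2 (-1.44), a channel gene, and AGA (-1.36), the aspartylglucosaminidase. AGA had 30.3 and 35.4 CPM with CBL0137 and 84.85 and 83.75 CPM with DMSO. Among the remaining pump genes 2 of 12 rose and 2 fell, 16.7% each, which is near the shares over all tested genes. Those that rose were TCIRG1 (1.37), an alternative to ATP6V0A1, and ATP6V0E1 (0.93), the paralog of ATP6V0E2. The 2 that fell were ATP6V1E2 (-0.66) and the assembly factor gene VMA21 (-0.69), neither of them called in FPKM (-0.54 for ATP6V1E2 and -0.57 for VMA21). These 4 pump genes, too, were chosen after their values were seen.

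None of the 4 genes of the MITF and TFE family, the transcription factors of the pathway, was called higher. MITF had 5.05 and 5.65 CPM with CBL0137 and 11.3 and 12.03 CPM with DMSO (-1.12, SE 0.15, called lower by counts, against -0.53 and not called on the log2(FPKM + 1) scale), TFE3 was at -0.21 (SE 0.06), TFEB at 0.53 (SE 0.17, adjusted p = 0.0057 by edgeR) under the fold limit and TFEC at 0.17 (SE 0.29).

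RefSeq promoter windows (GRCh38.p14, 250 bases before to 50 bases after a start site) were given for 37 of the 53 genes. They were searched on both strands for the E-box CACGTG, which reads the same on either strand, for the extended forms GTCACGTG and CACGTGAC, each of which contains it, and for the 10-base palindrome that joins both extended forms around 1 E-box. The E-box stood in 12 of the 37 genes (32.4%), against 10.9% of 15843 protein-coding genes. An extended form stood in 8 (21.6%, against 4.06%) and the 10-base form in 3 (8.11%, against 0.638%). In the list of other lysosomal genes 15 of 56 (26.8%) held an E-box and 13 (23.2%) an extended form. A match is a description of these windows and not of binding.

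Of the 12 genes with an E-box 6 rose and 0 fell (median log2 fold change 0.70), and of 23 tested genes without one 10 rose and 2 fell (median 0.47). Over all tested genes with a window 16.1% of those with an E-box and 16.5% of those without one were called higher. For the extended forms these shares were 18.5% and 16.3%, and for the 10-base form 21.4% and 16.4%. Among the lysosomal genes 4 of 8 with an extended form rose, and 12 of 27 without one. In the list of other lysosomal genes 3 of 12 with an extended form rose, and 14 of 36 without one. The windows of the 6 lysosomal genes with an E-box that rose are printed below, with the E-box and any extension of it in capitals. They were picked by their call, so they do not show whether an E-box goes with a rise. Not printed are LAMP1 (0.46), CTSD (0.42), CD63 (0.27), ATP6V0E2 (0.20) and ARSB (-0.09). These hold an E-box as well and were not called in the main edgeR test. GALNS, which has 2 elements, is added: it stayed under the fold limit in the main edgeR test (0.45) but was called higher with library size alone (0.61) and in FPKM (0.72). Positions are counted from the start site, the first transcribed base being 1.
CTSF (2.91, chr11:66568557-66568856, minus strand): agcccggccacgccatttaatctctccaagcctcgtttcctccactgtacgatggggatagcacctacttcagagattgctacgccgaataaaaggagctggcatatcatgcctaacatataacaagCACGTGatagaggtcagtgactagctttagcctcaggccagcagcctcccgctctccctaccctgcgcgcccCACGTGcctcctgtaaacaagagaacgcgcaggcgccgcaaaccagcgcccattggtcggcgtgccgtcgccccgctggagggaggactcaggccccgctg
ATP6V0D1 (1.59, chr16:67481108-67481407, minus strand): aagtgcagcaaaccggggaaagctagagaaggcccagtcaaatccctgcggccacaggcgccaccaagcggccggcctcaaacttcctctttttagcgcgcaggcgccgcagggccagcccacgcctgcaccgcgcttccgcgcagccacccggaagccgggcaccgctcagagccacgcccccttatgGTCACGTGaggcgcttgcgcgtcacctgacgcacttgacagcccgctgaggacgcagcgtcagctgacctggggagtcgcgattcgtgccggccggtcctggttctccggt
NEU1 (1.58, chr6:31862772-31863071, minus strand): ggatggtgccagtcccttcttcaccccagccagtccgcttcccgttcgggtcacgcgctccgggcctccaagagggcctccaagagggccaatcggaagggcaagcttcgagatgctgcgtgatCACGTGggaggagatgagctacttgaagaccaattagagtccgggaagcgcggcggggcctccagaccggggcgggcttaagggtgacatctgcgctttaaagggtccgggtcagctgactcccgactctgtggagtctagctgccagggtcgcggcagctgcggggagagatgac
GAA (1.31, chr17:80101331-80101630, plus strand): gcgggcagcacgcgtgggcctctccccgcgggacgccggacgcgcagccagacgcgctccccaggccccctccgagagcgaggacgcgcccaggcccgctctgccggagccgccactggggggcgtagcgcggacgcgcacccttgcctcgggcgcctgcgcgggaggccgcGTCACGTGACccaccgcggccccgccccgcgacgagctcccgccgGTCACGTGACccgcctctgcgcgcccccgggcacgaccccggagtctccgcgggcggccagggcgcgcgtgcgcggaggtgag
MCOLN1 (0.99, chr19:7522374-7522673, plus strand): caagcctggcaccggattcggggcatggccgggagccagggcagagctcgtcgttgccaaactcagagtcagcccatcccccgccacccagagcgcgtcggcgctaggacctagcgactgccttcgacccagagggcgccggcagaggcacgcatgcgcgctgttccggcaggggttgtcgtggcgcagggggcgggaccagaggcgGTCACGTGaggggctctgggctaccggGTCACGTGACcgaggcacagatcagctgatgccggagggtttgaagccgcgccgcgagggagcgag
CTSA (0.95, chr20:45891085-45891384, plus strand): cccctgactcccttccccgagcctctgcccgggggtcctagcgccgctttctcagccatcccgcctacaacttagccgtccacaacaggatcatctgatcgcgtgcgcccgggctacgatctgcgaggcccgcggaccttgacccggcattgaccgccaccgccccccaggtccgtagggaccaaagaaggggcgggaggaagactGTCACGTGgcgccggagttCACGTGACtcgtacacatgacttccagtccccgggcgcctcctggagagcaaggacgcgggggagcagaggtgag
GALNS (0.45, chr16:88856898-88857197, minus strand): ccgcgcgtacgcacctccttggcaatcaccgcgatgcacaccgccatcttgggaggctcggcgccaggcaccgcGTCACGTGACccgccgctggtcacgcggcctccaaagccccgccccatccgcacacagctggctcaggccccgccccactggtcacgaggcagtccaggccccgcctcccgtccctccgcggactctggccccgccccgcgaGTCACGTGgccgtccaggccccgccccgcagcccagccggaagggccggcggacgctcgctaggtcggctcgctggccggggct

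GAA held the 10-base form in both of its elements, which begin at positions -76 and -31 by their E-box, and MCOLN1 held it in the element nearer the start, at -14. CTSA had extended forms at -42 and -25, facing opposite ways, and ATP6V0D1 had 1 at -59. CTSF, with the largest rise, had plain E-boxes at -123 and -51 with no extension, as NEU1 did at -126. LAMP1 had 6 E-boxes in its window, the most of the 37 genes, with a log2 fold change of 0.46. Windows for ARSA, ATP6V1A, ATP6V1H, CTSO, HEXA, NAGLU, PSAP and SGSH, all called, were not used here.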

How the data were processed

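RNA-seq was measured in 4 libraries of SKNMC cells, 2 with CBL0137 and 2 with DMSO, grouped by sample title. The deposited matrix gives raw counts and FPKM per Ensembl gene. Per the series' design text, Trim Galore trimming, HISAT2 alignment to hg19, HTSeq 0.11.1 counting and DESeq2 1.26.0 testing were the authors' steps. The submitters' processing notes also name mm10. No source used here gives the annotation, strand setting or FPKM tool. The authors' FPKM uses read number, gene length and depth, and 5103 genes with 0 counts had an FPKM above 0.

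The 6 entries naming no gene were left out; among the counted reads, 8.53% to 10.3% fell in no gene, 8.75% to 9.34% fitted several genes and 6.91% to 7.13% had no unique alignment. Names and GRCh37 positions came from GENCODE release 44, which held 58524 identifiers. Counts were tested with edgeR 4.0.16 in R 4.3.3 (TMM, filterByExpr, quasi-likelihood F test), with the limits of the design text, an adjusted p under 0.05 and a fold above 1.5. CPM use TMM factors of 0.943 to 1.06. SE is the absolute log2 fold change over the square root of F. FPKM were tested with limma 3.58.1 on log2(FPKM + 1), which understates changes of low genes. DESeq2 1.42.0, other scalings, filters, limits and left-out libraries were alternatives. On simulated counts over 16926 genes, edgeR recovered 100% of 100 genes changed by 0.8 on the log2 scale, with 3 false calls. The changed genes were drawn from better expressed ones, and all genes had a common dispersion (coefficient of variation 4.11%). The recovery therefore does not extend to low genes such as CTSL and CTSO or to genes that vary more. Replicates of a group differed beyond sampling noise (chi-square per degree of freedom 2.82 for CBL0137 and 3.12 for DMSO). With 2 libraries a group, an exact permutation test of a single value could not reach 0.05, so none is given.

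The members and lists were chosen with earlier results of these data known. The lipid class was made for genes that the chosen classes left out. Values in every library were given for up to 3 called genes per class and direction, by adjusted p, and for the gene with the highest FPKM. Other members are given by fold change, and the 3 highest and 3 lowest called genes of the other list were chosen for naming, of which 1 is not reported here.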

Additional observations from a re-analysis of the deposited data

How the results depend on the processing

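The median log2 fold change of the lysosomal genes stayed positive, between 0.44 and 0.63, against 0.47 in the report. It was 0.63 with library size alone, which moved the median of all genes by 0.159, 0.54 with upper-quartile factors, 0.51 with a stricter filter on low counts, and 0.56, 0.60 and 0.53 in FPKM with 1 added, with 0.1 added and with no filter. Other scalings, filters and tools gave counts of higher and lower genes within 1.5 times of 23 and 3, except 1 lower in FPKM with no filter. Without the fold limit 36 were higher and 7 lower. Past a fold of 2 there were 8 higher, and CTSO and LIPA stayed lower. The share of all tested genes past a fold of 2 is not given here, so the counts at that limit have no background beside them. With library size alone more of all tested genes, too, were called higher and fewer lower than in the main edgeR test. Genes whose exons overlap no other gene, a choice made after seeing the data, gave 10 higher of 26.

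By class, with no fold limit 7 proteases, 4 membrane protein genes and 10 pump genes were higher, and 1 glycosidase, 3 lipid genes and 1 pump gene lower. With a fold above 2, 2 proteases, 3 glycosidases, 1 sulfatase, 1 lipid gene, 0 membrane protein genes and 1 pump gene were higher, and 0 membrane protein genes lower. Membrane protein genes called higher were 3 with library size alone and 2 with the GC and length trend removed and in FPKM with either number added. Membrane protein genes called lower were 0 with library size alone, upper-quartile factors, the stricter filter, the GC and length trend removed, and FPKM in all 3 forms. Sulfatases called higher were 1 with that trend removed and in FPKM with no filter, where 0 proteases were lower. The other lysosomal genes had 32 higher and 11 lower when no fold was required, 9 and 2 past a fold of 2, 3 lower with library size alone and in FPKM with 1 added, and 2 lower in FPKM with no filter. HEXA reversed to -0.02 in all 3 FPKM settings, and the cause was not tested.

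Leaving out each library in turn gave 21 to 23 lysosomal genes higher and 2 to 4 lower. Sulfatases called lower were 0 to 1 (IDS without DMSO replicate 1), and membrane protein genes called lower 0 to 1 (SCARB2 lost without CBL0137 replicate 1). With 1 library left in a group, that library is assumed to vary like the others. With the replicate number as a block, 22 lysosomal genes were higher and 3 lower (median 0.47). With the replicate block and the GC and length trend removed, 24 were higher and 2 lower, with 1 sulfatase higher, 2 membrane protein genes higher and 0 lower. The numbers gave no sign of pairing, the correlation of same-numbered deviations being -0.0393. Of the 26 called genes 7 were called under all 18 alternative settings fixed with the design: CTSF, GAA, NEU1, SGSH, LIPA, NPC2 and ATP6V0D1. These settings include the fold limit of 2, which a log2 fold change under 1 cannot pass. CTSA, TPP1, GLA, PSAP, ATP6V0A1, ATP6V1A, ATP6V1E1 and ATP6V1H lost their call under that limit alone. CTSL, CTSO, CTSH and IDS had 120 reads or fewer in each library, which limits their precision, and CTSZ and ATP6V0C could not be tested by counts.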
